A study of Mus musculus with 4 samples.

Results

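The genes described here encode heat shock chaperones and their partners, measured on 4 two-colour mouse arrays in leukaemia-like cell lines that differ in the CDK4 and CDK6 genes. The set has 10 genes: the small heat shock protein genes Hspb8 and Hspb1 with the co-chaperone gene Bag3, the HSP70 genes Hspa1a, Hspa1b and Hspa8, the HSP110 gene Hsph1, the HSP40 gene Dnajb1, the HSP90 gene Hsp90aa1, and Hspe1. They were chosen by function, with the R/R over WT log ratios of these same arrays already known, so their ratios are given as a description with no test. By RefSeq accession 14 probes matched 9 of the 10 genes, and Hspb8, Hspb1, Bag3, Hspa1a, Dnajb1 and Hsp90aa1 had 1 probe each. No probe was matched to Hspa1b. The probe for Hspa1a may also bind transcripts of that near-identical copy. Of 20045 genes tested in the series, 7 belong to this set. Bag3 and Hspa1a did not pass the filter on dim probes.

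The lines grew out of fetal liver given a p185 BCR-ABL1 transgene, the fusion tyrosine kinase of acute lymphoblastic leukaemia, which every group carries. R/R lines are homozygous for 2 knock-in mutations, R24C in Cdk4 and R31C in Cdk6, and wild-type (WT) lines have neither. The strain was a C57BL/6J x CD-1 mix for all, and RNA came from asynchronous cultures. Each of the R/R clones 1, 2 and 3 (Cy5) had an array of its own with the WT pool (Cy3) as the other channel, and the remaining array set an R/R pool (Cy3) against the WT pool (Cy5). The sign of that dye-swapped array was turned, so every ratio reads R/R over WT. On the pool array alone R/R is in Cy3, so a difference between clones and pool cannot be told apart from a dye effect. Each line is a spontaneous clone, clones 1 and 2 share the stem of their clone identifier, and what the pools held is not given in the sources used here.

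Chaperones of the HSP70 family bind unfolded stretches of other proteins, helped by J-domain proteins that deliver the client and by nucleotide exchange factors, such as HSP110 and BAG proteins, that release it. HSP90 acts later, on nearly folded clients such as kinases, and BCR-ABL1 and CDK4 are known clients of HSP90. Small heat shock proteins hold unfolded proteins without using ATP, and HSPB8 with BAG3 delivers them to autophagy. Under heat or proteotoxic stress the transcription factor HSF1 binds heat shock elements, which are inverted repeats of the unit GAA, and switches on Hspa1a, Hspa1b, Hspb1, Dnajb1, Hsph1, Bag3 and others. Hspa8 is the constitutive HSP70 of unstressed cells. Hspe1 encodes HSP10, the lid of the chaperonin HSP60 in mitochondria, so it is not a cytosolic chaperone, unlike the others in the set.

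The heat shock element letters were looked for upstream of each gene, because these genes are known as HSF1 targets. RefSeq promoters (GRCm38.p6) were at hand for 8 of the 10 genes, not for Hspa8 and Hsp90aa1. In the 250 bases before the annotated start, 5 of the 8 genes held a pair of inverted units, GAANNTTC or TTCNNGAA. These motifs read the same on both strands, and among 32817 promoter windows of that length 6.69% held the first and 7.16% the second. The share with either motif was not counted, so nothing is read from the 5 of 8. The near-identical copies Hspa1a and Hspa1b are both among the 5, and Hsph1 and Dnajb1 were each searched in more than 1 window. A run of 3 units, GAANNTTCNNGAA or TTCNNGAANNTTC, stood upstream of Hspe1 alone among the 8 genes and in 0.466% of all windows. At Hspe1, 2 such runs overlap, and the capitals below mark both. The pairs within a run are counted above too. The stretches below are shown because they hold the matches of 3 of these genes beside Hspb8, the gene with the highest ratio. Each runs 5′ to 3′ on the gene's strand, and capitals mark the matched units. Hspb8 (150 bases up to the start, chr5:116422865-116423014, minus strand, a window that the noncoding gene Gm42009 overlaps) had no match in its 250 bases, which says only that these letters are absent from the window. Hspb1 (150 bases, chr5:135887769-135887918, plus strand) held 2 matches, with first bases 117 and 97 bases before the start. Hspa1a (150 bases, chr17:34972157-34972306, minus strand) held 1 match, 104 bases before the start. For Hspe1 a 30-base stretch is shown (chr1:55088053-55088082, plus strand), since the divergent gene Hspd1 overlaps its window.
Hspb8: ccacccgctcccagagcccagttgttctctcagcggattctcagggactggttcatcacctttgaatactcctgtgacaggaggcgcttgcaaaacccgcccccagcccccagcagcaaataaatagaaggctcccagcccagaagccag
Hspb1: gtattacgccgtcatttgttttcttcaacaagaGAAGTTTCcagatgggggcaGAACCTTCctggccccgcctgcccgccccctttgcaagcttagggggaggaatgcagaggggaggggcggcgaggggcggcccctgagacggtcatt
Hspa1a: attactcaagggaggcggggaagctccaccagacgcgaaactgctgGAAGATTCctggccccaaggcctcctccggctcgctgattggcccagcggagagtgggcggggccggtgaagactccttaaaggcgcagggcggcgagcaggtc
Hspe1: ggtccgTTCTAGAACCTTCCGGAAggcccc

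The Hspa1b window matched that of Hspa1a at 247 of 250 positions and held the same match at the same distance. Hsph1 has 2 annotated starts close together, both with 1 match, TTCTCGAA, whose first base lies 54 or 33 bases upstream. No match was found in the windows of Bag3 and Dnajb1.

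Hspb8 had the highest ratio of the set in R/R cells. Its log2 ratio was 1.00 in clone 1, 1.18 in clone 2, 1.44 in clone 3 and 1.15 on the pool array. All 4 R/R samples lay above the WT pool, and clone 3 was the highest. In the fit across all genes, in which the pool array counts as much as the 3 clones together, it stood at 1.18 ± 0.11 (SE, 3 clones and 1 pool), 2.27-fold. Every SE of this fit takes its spread from the 3 clones, moderated toward that of all genes. A gap between clones and pool goes into the dye term and does not widen the SE. The WT pool itself varied little from array to array: its normalised Hspb8 signal lay between 8.22 and 8.38 on the log2 intensity scale, against 9.23 to 9.82 in the R/R channels, and the channels did not overlap. This gene alone of the 7 tested passed the limma threshold (adjusted p under 0.05 over all genes), where 0.524% of all genes passed in either direction and 0.15% passed as higher. Since this contrast was known when the genes were chosen, nothing is read from that count. It did not pass without clone 2, under median centring or from the log ratios of the scanner software, while the Hspb8 value stayed between 1.12 and 1.45 in all 13 alternatives.

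The other genes of the small heat shock protein group gave no such ratio. Hspb1, which encodes the small heat shock protein HSP25, was at -0.34 in clone 1, 0.01 in clone 2, -0.27 in clone 3 and -0.13 on the pool array. Its value took both signs among the clones, and the fitted value was -0.17 ± 0.11. Over the 3 clone arrays the log2 signal of this probe had an SD of 0.22 in the WT pool channel and 0.40 in the R/R channel, and both channels were lowest on the clone 1 array and highest on the clone 2 array. Bag3, the co-chaperone that binds HSPB8 and HSP70, was well above background in 1 of 4 WT channels and in none of the R/R channels. No fold is therefore given for it.

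The stress-inducible HSP70 gene gave no usable signal in either genotype. The Hspa1a probe was not well above background in any of the 4 R/R or 4 WT channels. Whether Hspa1b transcripts were present could not be read from a probe of its own. No ratio is given for either gene.

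**Figure D1:**
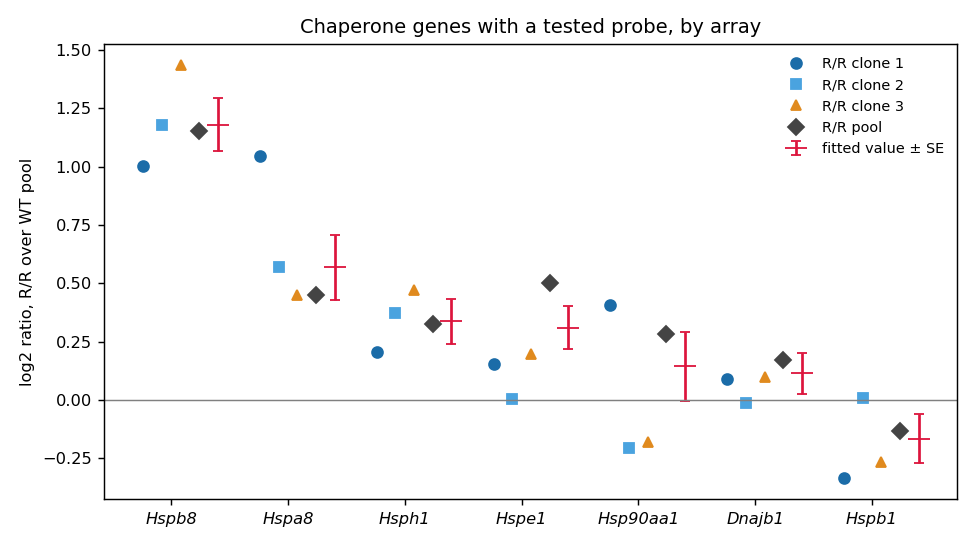
Log2 ratio of R/R over the WT pool (vertical axis) for the brightest probe of each of the 7 tested chaperone genes; markers are the 3 clones and the pool, and the red bar is the fitted value ± SE. Hspb8 lies at 1.00 or above on every array, Hspa8 between 0.45 and 1.05, and Hspb1 at or below 0.01.

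Hspa8, the constitutive HSP70 (HSC70), was the gene with the next highest value. Its brightest probe gave 1.05 in clone 1, 0.57 in clone 2, 0.45 in clone 3 and 0.45 on the pool array. All R/R samples were above the WT pool, and clone 1 stood apart from the others. The fitted value was 0.57 ± 0.14, 1.48-fold. The WT pool signal of this probe was lowest, 15.10, on the clone 1 array and 15.35 to 15.47 on the others, and the R/R signals ran from 15.80 to 16.14 without overlap. The 2 dimmer probes gave fitted values of 0.44 ± 0.11 and 0.49 ± 0.15. All 3 probes were above 0 on every array and highest in clone 1 among the clones, but they differed in the lowest clone, which was clone 3 by the brightest (0.45) and the second (0.13) and clone 2 by the third (0.06).

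The HSP110 gene Hsph1, an exchange factor of HSP70, was above the WT pool in every sample. Its brightest probe gave 0.20, 0.37 and 0.47 in clones 1, 2 and 3 and 0.32 on the pool array, and the fitted value was 0.34 ± 0.10 (1.26-fold). The other probe gave 0.32, 0.28 and 0.40 in the clones, 0.47 on the pool array and 0.40 ± 0.09 in the fit. Both probes were highest in clone 3 among the clones. Dnajb1, the J-domain partner of HSP70, was close to 0 throughout. It was at 0.09, -0.01 and 0.10 in the clones and at 0.17 on the pool array, with a fitted value of 0.11 ± 0.09.

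Hsp90aa1, the inducible HSP90, differed between the clones. Its ratio was 0.41 in clone 1 and 0.28 on the pool array, but -0.21 in clone 2 and -0.18 in clone 3. The SD of 0.35 over the clones was wider than that of 86.0% of all genes tested. The fitted value, 0.14 ± 0.15, lies within that spread. The WT pool signal of this probe ranged from 13.09 to 13.28, while the R/R signal ranged from 13.07 to 13.59, so the wider range was in the R/R channel.

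Hspe1 was low in the clones and higher on the pool array by its brightest probe. The clones gave 0.15, 0.00 and 0.20, the pool array gave 0.50, and the fitted value was 0.31 ± 0.09. The second probe had the same form, at 0.06, 0.09 and 0.20 in the clones and 0.46 on the pool array. The third and dimmest probe had the reverse, at 0.38, 0.34 and 0.58 in the clones and 0.12 on the pool array. Its fitted value of 0.28 ± 0.10 was nevertheless near the 0.29 ± 0.09 of the second probe, because the fit averages clones and pool. On the clones alone the Hspe1 value by the brightest probe was 0.12, against 0.31 with the pool. Neither that change nor the gap between clones and pool can be told apart from a dye effect.

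**Figure D2:**
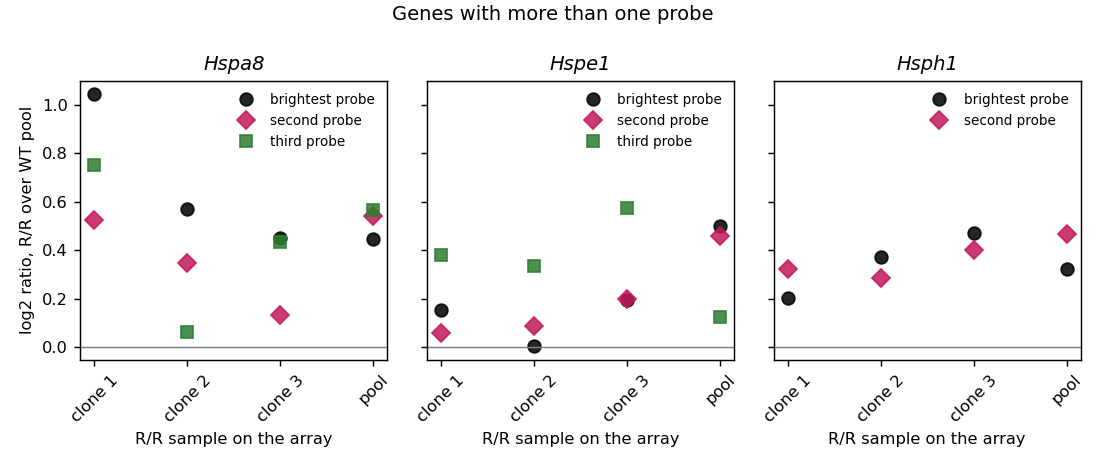
Log2 ratio of R/R over the WT pool (vertical axis) on each array (horizontal axis) for every probe of Hspa8, Hspe1 and Hsph1; colours and markers separate the probes, ordered by brightness. The third Hspe1 probe is highest in clone 3 (0.58) and lowest on the pool array (0.12), where the other Hspe1 probes are highest (0.50 and 0.46).

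In order of the fitted value the genes ran Hspb8 (1.18), Hspa8 (0.57), Hsph1 (0.34), Hspe1 (0.31), Hsp90aa1 (0.14), Dnajb1 (0.11) and Hspb1 (-0.17). Hspb8 and Hspa8 overlapped in single samples, since Hspa8 in clone 1 (1.05) exceeded Hspb8 in clone 1 (1.00). Every other pair of neighbours in this order overlapped too, so these arrays do not fix the order of neighbours. The median over the 7 genes was 0.31 in the fit and 0.20, 0.01, 0.20 and 0.32 in clones 1, 2 and 3 and the pool, against -0.02 in the fit over all genes. Above 0 on all 4 arrays were 4 of the 7 genes (Hspb8, Hspa8, Hsph1 and Hspe1), beside 14.6% of all genes; the arrays share the WT pool, and nothing is read from this share. The highest clone differed between genes: it was clone 3 for 4 genes, clone 1 for 2 and clone 2 for 1. Over all genes these shares were 33.5%, 28.1% and 38.4%, and nothing is read from the counts. The SD over the clones had a median of 0.18 in the 7 genes and 0.17 in all genes, and the signal of the WT pool over the same 3 arrays had a median SD of 0.06 in both.

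**Figure D3:**
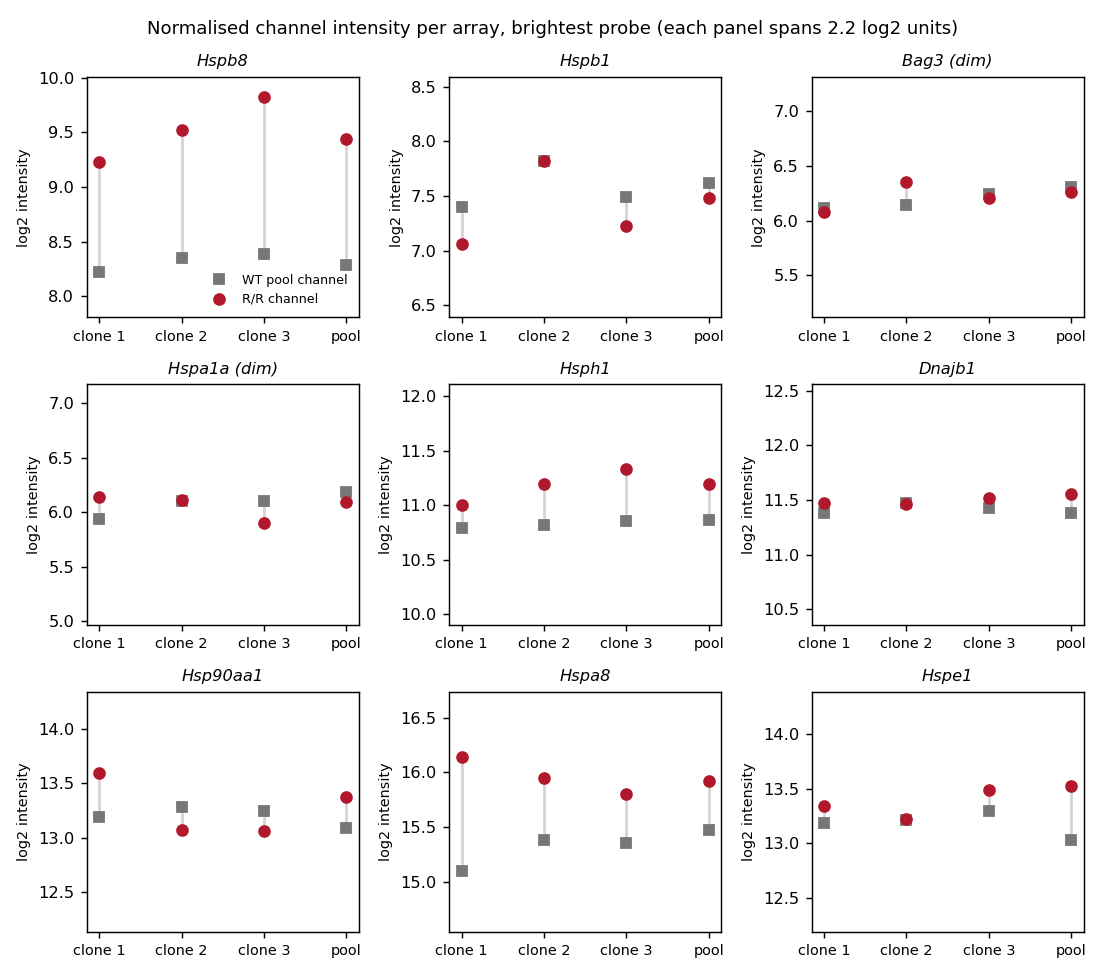
Normalised log2 intensity (vertical axis, of the same span in every panel) of the R/R channel (red circles) and the WT pool channel (grey squares) on each array for the brightest probe of 9 genes; grey lines join the 2 channels of an array. The channels separate for Hspb8 (8.22 to 8.38 in WT, 9.23 to 9.82 in R/R) and cross for Hsp90aa1; panels marked dim are probes that did not pass the filter, and levels are not comparable between panels.

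The sign on single arrays differed between normalisations. With median centring in place of loess, 5 of the 7 genes changed sign on the dye-swapped pool array, 2 on the clone 2 array, 1 on the clone 3 array and 0 on the clone 1 array, and Hspa8 read 1.89 in clone 1 and -0.55 on the pool array. The fitted values, from which the main fit removes a dye term, kept their sign in all 91 combinations of gene and alternative. Some of these, such as a change of filter, could not move a value.

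The rest of the chaperone network was described by lists of genes written by function. Of 104 listed genes 103 had a probe and 91 were tested. None of the 91 passed the limma threshold over all genes in either direction, beside 0.524% of all genes. The smallest absolute fitted value of any called gene was 0.74, and the 91 ran from -0.46 to 0.65. The lack of a call, here and in the lists below, therefore does not show that a gene was unchanged. At an unadjusted p under 0.05, 18 were higher and 4 lower, which is 22 of 91 beside 15.4% of all genes. Fitted values were above 0 in 72 of the 91, beside 46.4% of all genes, and the median was 0.14. The lists share the WT pool with every other gene, and no list was tested as a set. With the pool counted as another replicate and no dye term, 7 of the 91 were called higher and 2 lower, beside 5.69% of all genes called in either direction by that fit.

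None of the factors that control the heat shock response was called: Hsf1, the master regulator, stood at 0.14 ± 0.09 (limma adjusted p = 0.501) and Hsf2 at 0.24 ± 0.12 (limma adjusted p = 0.413). The list of HSF regulators had a median of 0.07 over 4 genes. Among other cytosolic HSP70 and HSP110 genes (4 tested, all above 0), Hspa2 stood at 0.55 ± 0.12 and Hspa14 at 0.21 ± 0.10, and neither passed. Of 13 other J-domain genes 8 were above 0 and the median was 0.02. Dnaja1, a cytosolic partner of HSC70, stood at 0.59 ± 0.09 (limma adjusted p = 0.083), between 0.47 and 0.64 in the clones and at 0.62 on the pool array. The ribosome-associated J-domain gene Dnajc2 stood at 0.49 ± 0.10.

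Among HSP90 and its co-chaperones the fitted value of all 17 genes was above 0, none was called and the median was 0.21. Among them Ppid, a peptidyl-prolyl isomerase that binds HSP90, stood at 0.43 ± 0.10 (limma adjusted p = 0.165). Ptges3, which encodes the co-chaperone p23, stood at 0.26 ± 0.09, but was between -0.15 and -0.05 in the clones and at 0.62 on the pool array. That gap, too, cannot be told apart from a dye effect. The median of this list was 0.28 in clone 1, 0.13 in clone 2, 0.05 in clone 3 and 0.23 on the pool array. Of the BAG and exchange factor genes 6 of 8 were above 0 (median 0.11). Bag2, an inhibitor of the ligase CHIP, stood at 0.44 ± 0.09 (limma adjusted p = 0.134), and Bag1 at 0.18 ± 0.09. The other small heat shock protein genes (4 tested) included Cryab at 0.22 ± 0.10 and Hspb11, which encodes a subunit of intraflagellar transport, at -0.46 ± 0.10.

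The chaperonin and prefoldin lists, which fold actin and tubulin, also lay mostly above 0 without a call. Of 8 CCT genes 7 were above 0 (median 0.09), with Cct3 at 0.21 ± 0.09 and Cct5 at 0.20 ± 0.09. Of 6 prefoldin genes 5 were above 0 (median 0.32), with Pfdn2 at 0.40 ± 0.09 and Pfdn4 at 0.41 ± 0.10. Mitochondrial chaperones and proteases did not share this sign: 5 of 12 were above 0 (median -0.06), and the lowest p belonged to the disaggregase gene Clpb at -0.42 ± 0.09 and the protease gene Lonp1 at -0.31 ± 0.09, neither called. In the endoplasmic reticulum list 14 of 15 genes were above 0 (median 0.21). Its genes with the smallest p were Hspa5, which encodes the HSP70 of that compartment, BiP, at 0.65 ± 0.09 (limma adjusted p = 0.067) and Sdf2l1 at 0.41 ± 0.09 (limma adjusted p = 0.148). Hspa5 was between 0.63 and 0.81 in the clones and at 0.58 on the pool array. On the clones alone it passed, at 0.72 ± 0.09 (limma adjusted p = 0.048), beside 0.708% of all genes. R/R is in Cy5 on every clone array, so genotype and dye cannot be told apart in that fit.

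**Figure D4:**
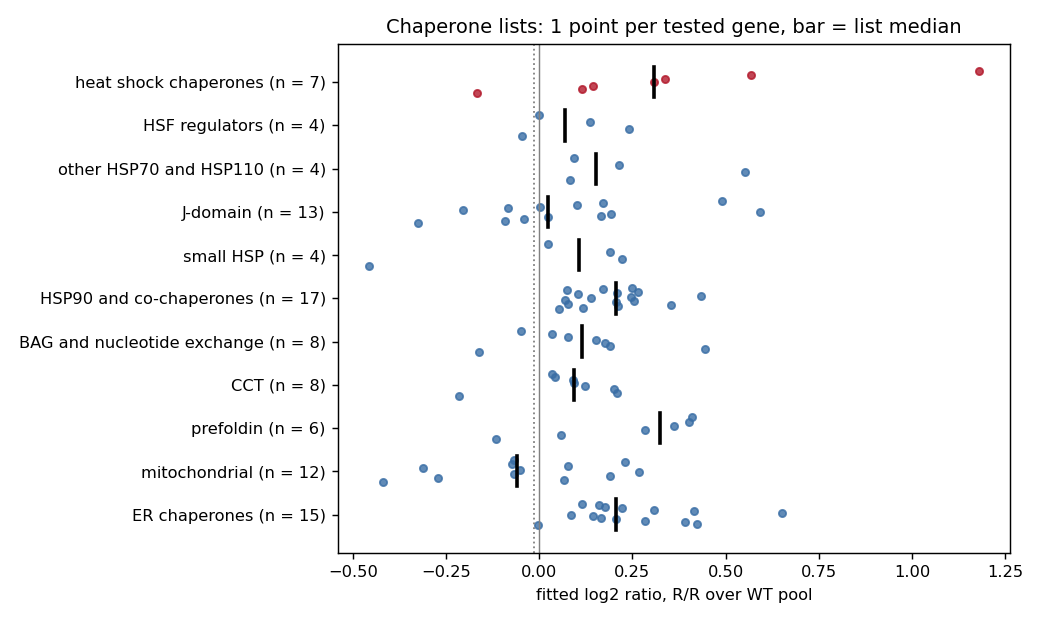
Fitted log2 ratio of R/R over the WT pool (horizontal axis) for each tested gene (points) of the heat shock chaperone set (red) and of 10 lists of related genes (blue), with the list median as a black bar, 0 as a grey line and the median of all genes as a dotted line. Hspb8 (1.18) lies outside the range of every other list, whose highest gene is Hspa5 (0.65).

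The genes whose pattern over the 4 arrays was nearest to that of Hspb8, by Euclidean distance of the log2 ratios, were Ubqln2 (distance 0.32), Efhd1 (0.39) and Cbr3 (0.42). Ubqln2, which encodes a ubiquilin, was at 1.13, 0.94 and 1.58 in clones 1, 2 and 3 and at 1.08 on the pool array. All 3 of these genes were highest in clone 3, as Hspb8 was, which follows in part from how they were picked. Nearest to the median of the 7 chaperone genes were the proteasome gene Psmd3 (0.04), the helicase gene Brip1 (0.07) and Eif3j2 (0.08).

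The share of spots well above background was 42.8% to 53.4% per channel, and the number of arrays limits the precision. All 12 early B-lineage markers listed were well above background in both genotypes, and the summed signal of their probes was 156545 to 177535 in the WT channels and 166499 to 220121 in the R/R channels. None of the 4 hepatocyte and 4 megakaryocyte and mast cell markers was well above background. The summed signal of 7 erythroid markers was 9093 to 10124 in the WT channels and 2235 to 3760 in the R/R channels, with 2 of the 3 tested lower: Hbb-bt at -1.84 ± 0.20 (limma adjusted p = 0.042) and Hbb-bh1 at -1.81 ± 0.11 (limma adjusted p = 0.011). The defining erythroid markers Hba-a1, Klf1, Epor and Alas2 were not well above background in any channel, and Gata1 was so in the 4 WT channels and in no R/R channel. Of other lineages, the myeloid markers Elane, Csf1r and Itgam, the T cell markers Cd3e and Cd4 and the stromal marker Col1a2 were well above background in all channels, and Lyz2 and Col1a1 were so in the 4 WT channels and in 3 and 2 of the R/R channels. Summed signals of 4 T cell markers were 643 to 809 in WT and 645 to 832 in R/R, and those of 4 stromal markers 349 to 371 and 307 to 374. Summed signals of 6 myeloid markers were 30124 to 32849 in WT and 16914 to 35896 in R/R. The part of these markers in the chaperone values was not tested. In such bulk RNA, fewer cells with a transcript and less of it per cell cannot be told apart.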

How the data were processed

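RNA of 3 R/R clones and 1 R/R pool was set against 1 WT pool on 4 arrays of 1 slide; per the labels' protocols 100 ng of RNA with integrity numbers of 9.8 to 10.0 was labelled. Agilent Feature Extraction 11.5.1.1 gave, per the file headers, the intensity of each spot and of its local background as medians over pixels. The log10 values, per the file headers, are ratios of processed Cy5 over Cy3. The log2 values deposited by the authors (column medians 0, 0.0040, -0.0011 and -0.0014) follow the ratios computed here by position (r of 0.989 to 0.997 across spots, dye-swapped sign already turned). How they were made and centred is not stated, their row numbers match no probe name, and they gave counts alone.

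With limma 3.58.1 in R 4.3.3, median signals were background-corrected (normexp, offset 50) and loess-normalised within arrays, control spots without weight and outlier spots left out. Channel levels came from a further Aquantile step. Probes were named by RefSeq accession, so 27656 of 55681 had a symbol. A probe passed if either genotype's channel was well above background on 3 or more arrays. Each gene's brightest such probe was fitted with a genotype and a dye term (20045 genes, 12296 of them with a symbol and the others under the array's systematic name, 2 residual degrees of freedom, two-sided, Benjamini-Hochberg). In limma the variance of each gene is moderated toward that of all genes, so SEs and p-values also draw on the other genes. The spread of the WT pool does not enter, and p-values measure only this moderated spread between these samples. The fit was run on simulated data, which checked only that it returned planted values on average. That simulation had independent noise on each array, with no dye effect and no shared WT pool, so it does not speak to those limits. The genes, lists, tests and alternatives were chosen with earlier results of these data known. Named genes outside the set are the 2 with the smallest p of each chaperone list, called genes of the lists, and the 3 nearest in pattern among genes with a symbol (predicted and Riken genes left out). Alternatives are given in the closing section. Cell type markers are named by whether they lay above background. One listed marker is not reported here.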

Additional observations from a re-analysis of the deposited data

How the results depend on the processing

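All 7 chaperone genes kept the sign of their fitted value in all 13 alternatives, and 89 of 91 values moved by less than the SD over the clones. The exceptions were Hspb8 with the scanner software's log ratios (1.45) and Hspe1 on the clones alone (0.12). The median of the 7 genes there was also 0.12, against 0.31 in the main fit. Genotype and dye cannot be told apart on the clones alone. With no filter or the strict filter the values could not move, nor could genes with 1 probe when probes were averaged. Hsp90aa1 kept its sign on the clones alone at 0.005, with clones 2 and 3 below 0. Of the chaperone genes, 0 were called from the scanner ratios, 0 under median centring and 0 to 1 with a clone left out. With no dye term 2 were called (Hspb8 and Hspa8), and 2 with clones 1 and 2 averaged. The fit with clones 1 and 2 averaged had no dye term either, here and below, so these 2 changes are not separated in it. Of the 91 network genes, 1 was called higher on the clones alone; 7 were called higher and 2 lower with no dye term, and 3 and 1 with clones 1 and 2 averaged. Over all genes, 30 were called higher and 75 lower, against 6 and 44 from the scanner ratios, 2 and 28 under median centring, 490 and 650 with no dye term, 276 and 437 with clones 1 and 2 averaged, 61 and 139 among the 59305 rows of the deposited log2 table, and 48 lower with the strict filter. With a clone left out, 11 (without clone 1) to 88 (without clone 3) were called higher and 47 to 176 lower. The causes of these differences in the counts were not tested. The test takes its spread from 3 clones, moderated toward that of all genes, and leaves out any spread between WT samples. The deposited table was not used for values of single genes, since its row numbers match no probe name and its rows were matched by position alone.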
